A study of Homo sapiens with 12 samples.

Results

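THP-1 is a line grown from a human monocytic leukaemia. The cells described here received the pyroptosis stimulus together with all 3 drugs of the study, and are set against cells that received neither stimulus nor drug. The comparison rests on 6 of the 12 RNA-seq libraries of the series. The untreated group (NC) and the 3-drug group (CEL) have 3 libraries each. The CEL cells were given lipopolysaccharide (LPS) and ATP, the pair that sets up the pyroptosis model, with cyclosporin A, eltrombopag and luspatercept. The model without drugs (LPS, 3 libraries) was used to say which differences from untreated cells the stimulus alone also showed. The group with cyclosporin A and eltrombopag but no luspatercept (CE, 3 libraries) is cited where its values bear on a gene. The labels used here name no dose, time or vehicle. Every group is THP-1, so the cells are a single line. The NC cells differ from the CEL cells in the stimulus and in 3 drugs at once, and no group with drugs alone was analysed here, so stimulus and drugs cannot be told apart in the CEL minus NC difference. Libraries are numbered 1 to 3 in each group, and the labels give the same number as a batch. Nothing in the labels says that the libraries came from separate cultures, so p-values measure the spread between these libraries, which may be technical. Of 78932 genes in the count table, 14065 had enough reads to be tested.

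LPS is a bacterial cell wall component that is sensed by the TLR4 receptor and switches on NF-kB, a transcription factor for cytokine genes. ATP outside the cell opens the P2RX7 channel, after which the NLRP3 inflammasome activates caspase-1, which matures interleukin-1 beta and cuts gasdermin D to open pores in the membrane. Cyclosporin A, bound to the protein cyclophilin A (PPIA), blocks calcineurin, the phosphatase that sends NFAT factors to the nucleus. Eltrombopag is an agonist of the thrombopoietin receptor that also binds iron. Luspatercept is a soluble activin receptor type IIB fusion protein that traps ligands of the TGF-beta superfamily. Transcript levels say nothing of caspase cleavage or pore opening.

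Total estimated counts in the 6 libraries ran from 17737213 to 23183429. All replicate pairs differed by more than sampling noise, so none was taken for a library deposited again. Libraries NC 3 and LPS 1 stood apart: ribosomal RNA genes took 0.277% and 0.189% of their counts, against at most 0.000884% in each of the other 10. The counts of called genes without both are given beside the first count, and all values below use all libraries unless said otherwise. The monocytic genes CD33 (58.6 CPM in NC, 70.3 in CEL), CD4 (138 and 125) and CD68 (69.4 and 181) were present, where CPM is the count scaled to the size of the library. The other markers set for a monocytic line were uneven. LYZ was at 595 and 20.3 CPM in NC and CEL. SPI1 (4.38 and 6.63), CSF1R (7.25 and 44.4), ITGAM (1.48 and 9.79) and CEBPA (1.43 and 0.456) were low in NC. The granule peroxidase MPO was near 0 (34 counts in NC, 11 in CEL). Markers of other cell types were low. The 16 lymphocyte markers summed to 4.48 to 4.96 CPM in NC and 3.49 to 4.65 in CEL. The 20 erythroid and megakaryocytic markers summed to 2.90 to 3.32 CPM in NC and 1.88 to 4.90 in CEL. The 16 markers of fibroblasts, epithelium and endothelium summed to 0.854 to 1.82 CPM in NC, 73.7 to 87.3 in LPS and 4.28 to 6.65 in CEL. In NC, 2, 7 and 2 markers of these lists were at 0, and in CEL 6, 1 and 1.

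In the 3-drug cells, 9425 of 14065 genes (67%) differed from untreated cells at an adjusted p under 0.05 in edgeR's quasi-likelihood test, the rule for a called gene here. Of these, 4778 (34%) were higher and 4647 (33%) lower. At a change of 2-fold or more, 4958 genes (35.3%) were called, 2504 higher (17.8%) and 2454 lower (17.4%). The split depended on the scaling: with upper quartile factors, which shift the median over all genes to -0.24 on the log2 scale, 1930 were higher and 3197 lower at 2-fold, and on log2(TPM + 0.1) values with limma 3147 were higher and 1658 lower. Without NC 3 and LPS 1, 8551 genes were called and 4738 at 2-fold or more. By the same rule, the model without drugs differed from untreated cells in 6458 genes (45.9%) and, at 2-fold or more, in 2320 (16.5%), 1440 higher (10.2%) and 880 lower (6.26%). CEL differed from LPS in 7867 genes (55.9%) and, at 2-fold or more, in 2941 (20.9%), 1226 higher (8.72%) and 1715 lower (12.2%). The 3 CEL libraries and the 3 NC libraries did not overlap in 10657 genes (75.8%), which is the background for each gene below whose groups are said not to overlap. The CEL minus NC and LPS minus NC comparisons share the NC libraries. In RNA from whole cultures, a change in which cells are present and a change in RNA per cell cannot be told apart.

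The 4 genes that were given in advance as markers of the comparison moved in different ways. FTH1 (ENSG00000167996, chr11:61959718-61967660, GRCh38, GENCODE v29) encodes the ferritin heavy chain, which stores iron. Its level was 84.1, 80.0 and 87.3 CPM in the untreated libraries and 4532, 4508 and 4665 CPM in the 3-drug libraries. The groups lie 54.5-fold apart with no overlap (log2 change 5.77, SE 0.06, adjusted p = 4.75e-13), and the model without drugs lay between them at 1936, 1892 and 2024 CPM. FTH1 has many processed copies in the genome, and the share of reads lost to them is unknown here. ENO2 (chr12:6913745-6923698), an enolase of glycolysis, stood at 1.25, 1.00 and 1.37 CPM in NC, 1.72, 1.51 and 1.91 CPM in LPS and 30.6, 33.0 and 32.0 CPM in CEL. Among these 3 groups the CEL libraries were the high ones (26.4-fold above NC, log2 change 4.72, SE 0.12, adjusted p = 3.06e-11). CE, the group without luspatercept, was high too, at a mean of 18.8 CPM. LPS minus NC had a 95% interval of 0.23 to 0.79 on the log2 scale and was called (adjusted p = 0.0341). IL1B (chr2:112829751-112836903) encodes interleukin-1 beta. It went from 1.83, 2.33 and 2.06 CPM in NC to 2043, 2054 and 1866 CPM in LPS, and stood at 1008, 1110.2 and 1109.8 CPM in CEL. The 3-drug cells thus carried 519-fold more IL1B transcript than untreated cells (log2 change 9.02, SE 0.11, adjusted p = 5.41e-13) and 1.85-fold less than the model without drugs (log2 change -0.89, SE 0.08, adjusted p = 3.71e-06). KIT (chr4:54657918-54740715), the stem cell factor receptor of immature blood cells, fell from 231, 219 and 226 CPM in NC to 22.5, 26.7 and 27.7 CPM in CEL (log2 change -3.14, SE 0.09, adjusted p = 1.02e-10). The LPS libraries were lower again, at 16.7, 14.3 and 14.5 CPM. The plot of single libraries shows these 4 genes with 8 others described below.

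**Figure D1:**
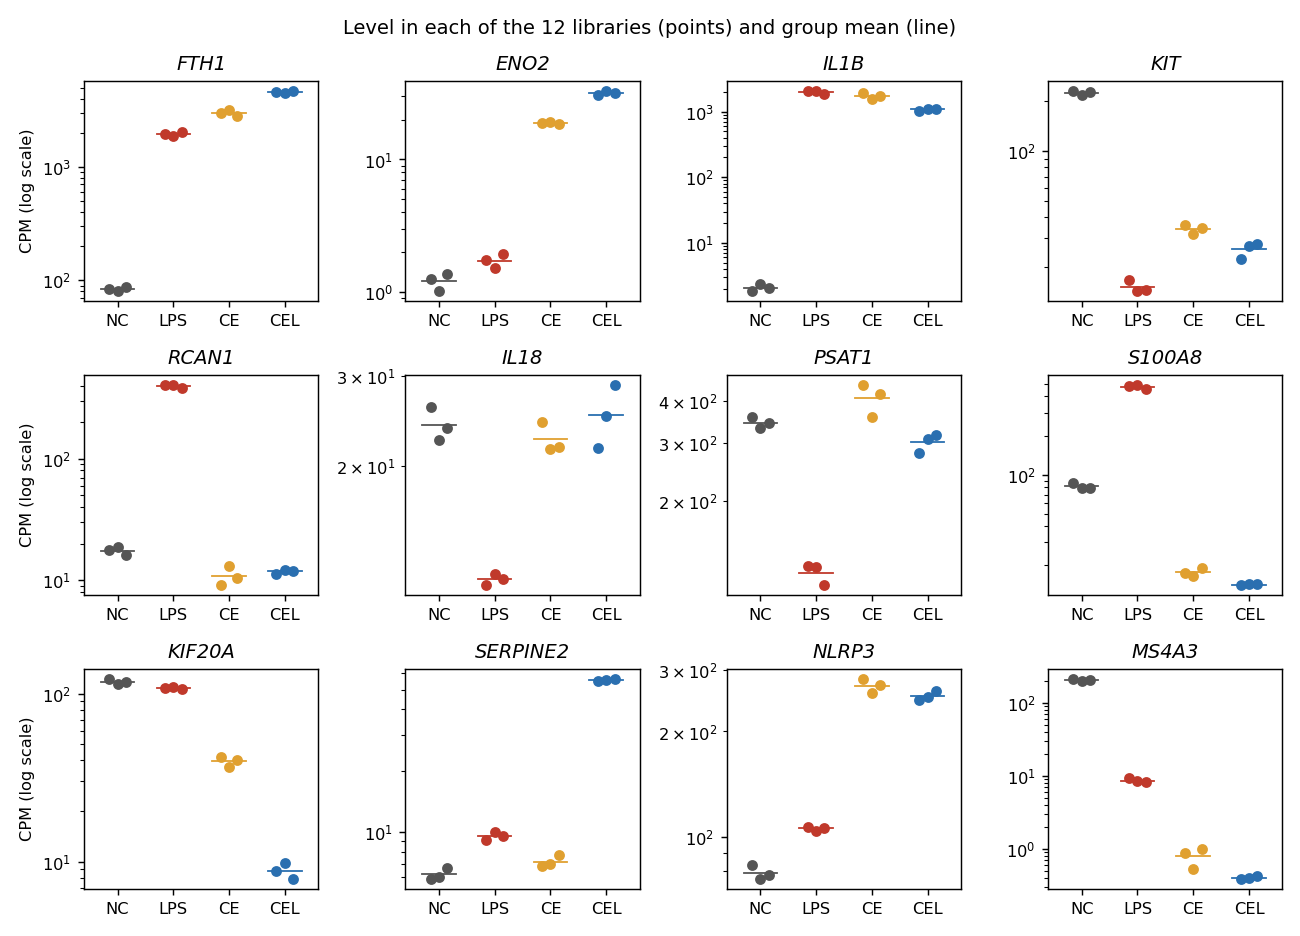
Level of 12 genes in CPM (count scaled to library size, log axis, scale set per gene) in each of 12 libraries (points, 3 a group) with the group mean (line), for untreated cells (NC), the model (LPS), cyclosporin A with eltrombopag (CE) and all 3 drugs (CEL). FTH1 and SERPINE2 are highest in CEL, IL1B is high in all groups that got LPS, RCAN1, IL18 and PSAT1 in CEL lie near NC, and S100A8 lies above NC in LPS and below it in CEL.

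Genes were sorted by what the stimulus did and what remained with the drugs. A gene remained changed if it was called at 2-fold or more in the same direction in LPS and in CEL, each against NC. It was restored if LPS differed from NC by 2-fold or more, CEL differed from LPS in the opposite direction, and the 95% interval of CEL minus NC lay within 2-fold. It was new if CEL differed from NC by 2-fold or more and from LPS in the same direction while the LPS minus NC interval lay within 2-fold, and it crossed over if CEL and LPS lay on opposite sides of NC by 2-fold or more. Of the 1440 genes raised in LPS, 1142 (79.3%) remained higher in CEL, 83 (5.76%) were restored, 34 (2.36%) crossed over to lower and 181 (12.6%) fell in none of these. Of the 880 genes lowered in LPS, 669 (76.0%) remained lower, 78 (8.86%) were restored, 4 (0.455%) crossed over and 129 (14.7%) fell in none. Read from the 3-drug side, 860 of the 2504 genes higher in CEL (34.3%) and 899 of the 2454 lower ones (36.6%) were new. Over all tested genes these classes hold 8.12% (remained higher), 4.76% (remained lower), 0.59% and 0.555% (restored from higher and from lower), 6.11% and 6.39% (new higher and new lower), 0.242% and 0.0284% (crossed over to lower and to higher). The median of the genes that remained higher was 2.64 in LPS minus NC and 2.73 in CEL minus NC on the log2 scale. For the genes that remained lower these medians were -1.61 and -2.33. The new class split differently with other scalings, at 542 higher and 1211 lower with upper quartile factors and 636 and 1061 with library size alone, and the restored class at 133 from higher and 44 from lower when genes of low count were kept. Under upper quartile factors 1015 genes remained higher and 874 lower.

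**Figure D2:**
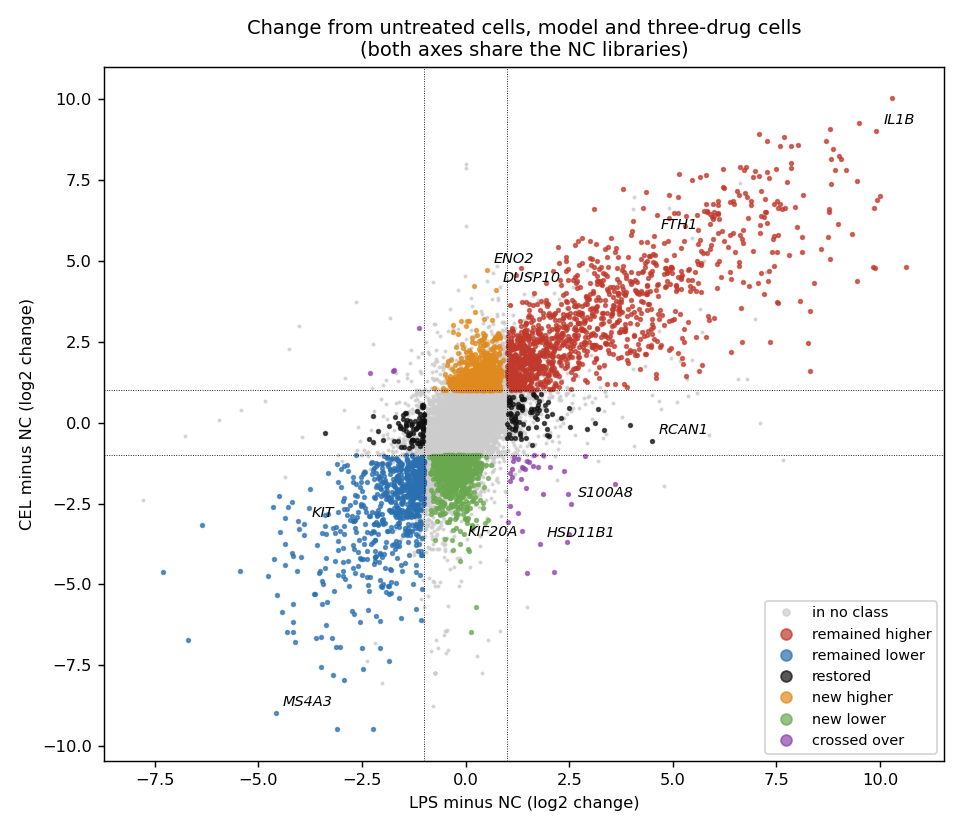
Each point is 1 of the tested genes, with its log2 change in LPS minus NC (horizontal) and in CEL minus NC (vertical), coloured by class, with dotted lines at 2-fold. The 1142 red and 669 blue points changed the same way in both comparisons, the 161 black points lie near 0 on the vertical axis, and both axes use the same NC libraries, so the slope of the cloud is no result.

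The inflammatory cytokine and chemokine genes stayed far above the untreated level. Of 29 genes in the list, 25 could be tested, and 22 were higher in CEL than in NC and 3 did not pass. All 22 rose by 2-fold or more, as 17.8% of all tested genes did. The list's median was 5.25 on the log2 scale in CEL minus NC and 7.13 in LPS minus NC, where the median of all genes was 0.00 and -0.01. All 22 were among the genes that remained higher (8.12% of all genes). In CEL against LPS, 19 of the 25 were lower (27.2% of all genes were), 2 higher (28.7%) and 4 did not pass. By 2-fold or more, 14 were lower in CEL than in LPS (12.2% of all genes) and 1 higher (8.72%). The list's median in CEL minus LPS was -1.63. Among the 20 tested members with a RefSeq promoter, 9 (45%) held a kappaB site, the motif bound by NF-kB, against 6.2% of the 10033 promoters of tested genes. Of all genes that remained higher and had a promoter, 9.86% held it. The list was made of known inflammatory genes, so its share describes the list and tests no regulator.

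The chemokine CXCL8, which attracts neutrophils, stood at 6.98, 5.39 and 6.68 CPM in NC, 3089.8, 3130.2 and 2434 CPM in LPS and 1655, 1892 and 1843 CPM in CEL (283-fold above NC, log2 change 8.14, SE 0.13, adjusted p = 4.77e-12). The lowest CEL library was far above the highest NC library. IL1A, the sister cytokine of interleukin-1 beta, rose from 0.0962 ± 0.0161 to 28.6 ± 2.79 CPM (mean ± SD, n = 3), and LPS held 53.7 ± 3.59 CPM. CCL3, a chemokine for monocytes, rose from 0.227 ± 0.0597 to 79.5 ± 3.88 CPM (log2 change 8.45, SE 0.22, adjusted p = 3.16e-12), and its near relative CCL4L2 rose from 0.129 ± 0.0401 to 30.05 ± 3.42 CPM, although reads of CCL4L2 and its close copy CCL4 may be shared. CXCL11, a chemokine for T cells, stood at 23.2 ± 1.32 CPM in CEL and 22.8 ± 1.00 CPM in LPS, where the 95% interval of the difference was -0.15 to 0.20. TNF, the cytokine that opens the acute response, rose from 2.28 ± 0.437 to 60.9 ± 3.05 CPM (log2 change 4.73, SE 0.16, adjusted p = 5.02e-10). IL6 had 1 count in all NC libraries together, 218 in LPS and 27 in CEL, which puts CEL at 27.8-fold (exact 95% counting interval 4.58 to 1138) of NC. CCL7 had 0 counts in NC, 351 in LPS and 36 in CEL, at least 12.4-fold higher in CEL than a floor of 3 counts over the NC group allows. The 3 members that did not pass were IL18 (0.07), OSM (0.78) and CCL22 (0.03). TNF, IL6, CCL7, CXCL10, OSM and CCL22 were picked from the list with their values known.

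The promoter of CXCL10, a chemokine induced by interferon and NF-kB that rose from 0.997 ± 0.144 to 56.2 ± 3.11 CPM, holds 2 kappaB sites upstream of the start. It is printed as a RefSeq window of 250 bases before to 50 after the start (chr4:76023448-76023747, minus strand, GRCh38.p14), 5′ to 3′, with the kappaB sites in capitals; like all promoters below it was chosen with the values known, as an example of its list.
CXCL10: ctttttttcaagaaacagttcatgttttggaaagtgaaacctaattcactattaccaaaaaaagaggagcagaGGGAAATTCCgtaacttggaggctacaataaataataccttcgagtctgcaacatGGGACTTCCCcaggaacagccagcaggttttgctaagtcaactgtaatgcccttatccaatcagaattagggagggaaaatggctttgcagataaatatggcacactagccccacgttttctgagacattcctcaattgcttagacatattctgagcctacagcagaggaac

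Genes of the inflammasome were mixed. Of 18, 17 were tested, and 12 were higher in CEL than in NC (34% of all genes were), 2 lower and 3 not passed, with a list median of 1.21 in CEL minus NC and 1.34 in LPS minus NC. NLRP3, the sensor itself, stood at 83.3, 76.2 and 78.3 CPM in NC, 107, 104 and 107 CPM in LPS, 283, 257 and 271 CPM in CE and 245, 251 and 261 CPM in CEL. It belongs to the new genes: all CEL libraries lay above all NC and LPS libraries (3.19-fold above NC, log2 change 1.67, SE 0.05, adjusted p = 7.72e-11). PANX1, a channel that releases ATP, rose from 14.3 ± 0.549 to 58.3 ± 1.76 CPM. P2RX4, an ATP-gated channel, rose from 15.7 ± 1.14 to 42.2 ± 0.555 CPM. PANX1 and P2RX4 remained higher. P2RX7, the ATP-gated channel introduced above and picked with its class known, was raised in LPS and restored in CEL. The protease genes CASP1 (from 81.4 ± 1.86 to 166 ± 5.68 CPM) and CASP4 (from 72.3 ± 4.53 to 154 ± 7.75 CPM) were higher as well. NAIP, a sensor of bacterial flagellin, fell from 29.3 ± 1.97 to 8.83 ± 0.994 CPM (log2 change -1.73, SE 0.09, adjusted p = 1.97e-08), while LPS had raised it to 74.3 ± 3.69 CPM; NAIP has near-identical partial copies, so its level is uncertain. PYCARD, the adaptor ASC, fell from 13.3 ± 3.03 to 7.61 ± 1.06 CPM (log2 change -0.80, SE 0.18, adjusted p = 0.00222). GSDMD, the gene of gasdermin D, was low in both groups (0.383 CPM in NC and 0.295 in CEL, adjusted p = 0.743). Of the 3 tested pore genes in the list, 2 were higher in CEL by 2-fold or more (17.8% of all genes). GSDME and NINJ1, picked with their classes known, remained higher.

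In the list of LPS sensing and NF-kB, 20 of 23 tested genes were higher in CEL and 1 lower (34% and 33% of all genes) and 2 did not pass, with a median of 2.38 in CEL minus NC and 2.26 in LPS minus NC. The inhibitors that NF-kB induces against itself were high. TNFAIP3, the deubiquitinase A20, went from 10.9, 11.7 and 10.3 CPM in NC to 655, 605 and 598 CPM in CEL (log2 change 5.82, SE 0.08, adjusted p = 1.63e-12), with LPS lower than CEL at 169, 174 and 179 CPM. No CEL library overlapped with an LPS library (log2 change 1.83, SE 0.08, adjusted p = 7.62e-09). NFKBIA, which holds NF-kB in the cytoplasm, rose from 29.3 ± 1.19 to 409 ± 6.87 CPM, and the subunit gene REL rose from 28.3 ± 2.11 to 147 ± 6.07 CPM. IRAK3, a brake on Toll-like receptor signals, was the list's only lower gene, at 204 ± 2.502 CPM in NC, 252 ± 1.72 CPM in LPS and 88.6 ± 1.12 CPM in CEL (log2 change -1.20, SE 0.03, adjusted p = 3.10e-11). MYD88, the adaptor of most Toll-like receptors, was restored: 23.4 CPM in NC, 78.2 in LPS and 33.9 in CEL, with a CEL minus NC interval of 0.34 to 0.73.

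All 34 tested interferon response genes were higher in CEL than in NC (34% of all genes), and 32 of them remained higher by 2-fold in both comparisons (8.12% of all genes). The list's median was 4.66 in CEL minus NC and 5.38 in LPS minus NC. In CEL against LPS, 18 were lower and 5 higher (27.2% and 28.7% of all genes), and 11 did not pass. MX2, an antiviral GTPase, rose from 9.80 ± 0.519 to 317 ± 7.18 CPM (log2 change 5.02, SE 0.05, adjusted p = 8.52e-14). OAS1, which makes the signal that activates RNase L, stood at 3.11, 2.60 and 2.57 CPM in NC, 271, 275 and 260.3 CPM in LPS and 356, 364 and 391 CPM in CEL (log2 change 7.06, SE 0.09, adjusted p = 4.75e-13). The CEL libraries were all above the LPS libraries for this gene (log2 change 0.46, SE 0.07, adjusted p = 1.07e-04). IFIT3, which binds foreign RNA with other IFIT proteins, rose from 5.97 ± 0.183 to 362 ± 19.3 CPM. IFI27, a mitochondrial interferon-induced protein, had the largest rise of the genes that passed the level limit for naming, from 0.166, 0.228 and 0.171 CPM in NC to 112, 120.1 and 128 CPM in CEL (615-fold, log2 change 9.26, SE 0.25, adjusted p = 2.67e-12). IFI27 stood at 38.3 CPM in CE against 119.8 in CEL, and MX1 at 23.1 against 149. No test was run between CE and CEL. The model without drugs already held IFI27 at 140 CPM. For this gene CEL minus LPS was not called (log2 change -0.23, SE 0.10, adjusted p = 0.0645). The interferon stimulated response element, searched on both strands as GAAA, any 2 bases and GAAA again, was present in 18 of 26 list promoters (69.2%) against 3.27% of all. Of all genes that remained higher and had a promoter, 9.23% held it. The list was made of known interferon genes, so its share describes the list and tests no regulator. IFIT3 and IFI27 are printed because they carry 2 copies each, shown in capitals, at 156 and 122 bases (IFIT3, chr10:89327747-89328046, plus strand) and 108 and 95 bases (IFI27, chr14:94110486-94110785, plus strand) before the start.
IFIT3: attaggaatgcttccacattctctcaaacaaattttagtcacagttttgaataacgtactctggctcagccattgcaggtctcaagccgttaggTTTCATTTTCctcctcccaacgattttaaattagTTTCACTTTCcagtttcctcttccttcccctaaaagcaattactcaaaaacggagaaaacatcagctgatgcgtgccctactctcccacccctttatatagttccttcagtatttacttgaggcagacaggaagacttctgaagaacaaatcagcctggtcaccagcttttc
IFI27: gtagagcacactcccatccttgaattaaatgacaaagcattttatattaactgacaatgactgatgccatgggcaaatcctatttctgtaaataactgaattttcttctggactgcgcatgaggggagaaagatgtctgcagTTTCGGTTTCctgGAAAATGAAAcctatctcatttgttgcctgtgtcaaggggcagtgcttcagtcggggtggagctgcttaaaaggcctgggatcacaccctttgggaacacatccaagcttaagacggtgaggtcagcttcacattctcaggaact

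The restored genes were few and came from several pathways. RCAN1, an inhibitor and target gene of calcineurin, had the largest LPS change among them. It stood at 17.7, 18.9 and 16.0 CPM in NC, 406, 402 and 379.5 CPM in LPS and 11.3, 12.2 and 12.0 CPM in CEL. All CEL libraries lay below all NC libraries, by a change smaller than 2-fold (log2 change -0.57, SE 0.11, adjusted p = 6.25e-04, interval -0.81 to -0.33). SLC1A3, a glutamate transporter, was at 15.3 ± 0.400 CPM in NC, 156 ± 13.6 CPM in LPS and 13.2 ± 0.958 CPM in CEL (log2 change -0.21, SE 0.09, adjusted p = 0.0628). The lysosomal channel gene MCOLN2 was at 47.8, 190.5 and 74.2 CPM in the same order, the interferon-inducible helicase DDX60L at 146, 571 and 168, and the calcium channel subunit gene CACNA2D4 at 7.23, 27.6 and 9.47. MCOLN2, DDX60L and CACNA2D4 were still called higher than NC within that limit (adjusted p = 4.58e-08, 0.00109 and 0.00872).

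Among genes restored from lower, the cytokine gene IL18 was at 26.0, 22.5 and 23.7 CPM in NC, 11.6, 12.3 and 12.0 CPM in LPS and 21.7, 25.1 and 28.9 CPM in CEL. The CEL range covered the NC range, and all 3 LPS libraries lay below both (CEL minus NC interval -0.16 to 0.29). PSAT1 and PHGDH, enzymes that make serine, and ASNS, which makes asparagine, were restored by the rule too, as was the lipoprotein receptor gene VLDLR. PSAT1 stood at 358, 332 and 344 CPM in NC, 127, 126 and 112 CPM in LPS and 279, 308 and 317 CPM in CEL (log2 change -0.19, SE 0.08, adjusted p = 0.0594). PHGDH had means of 74.7, 29.5 and 77.2 CPM, ASNS of 84.7, 40.6 and 124, and VLDLR of 76.8, 31.9 and 52.7. PELI2, a ubiquitin ligase of interleukin-1 signalling, was at 22.6, 8.39 and 22.4 CPM (interval -0.22 to 0.19). The calcium channel gene CACNB4 (31.1, 6.62 and 20.7 CPM), the microtubule gene MAP1B (33.5, 11.4 and 20.1) and the leukotriene receptor gene CYSLTR1 (44.0, 15.9 and 54.1) complete the named ones. By group means, PSAT1, VLDLR, CACNB4 and MAP1B in CEL lay below NC, and ASNS and CYSLTR1 above it, within the 2-fold limit. The low-level marker NKG7 of lymphocytes was also restored, at 2.82, 6.44 and 2.04 CPM. IL18, PHGDH, ASNS, VLDLR, MYD88, CASP1, CASP4, PYCARD and GSDMD were picked from their lists with values known.

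A small group went past the untreated level to the other side. S100A8 encodes a subunit of calprotectin, a calcium-binding protein of activated neutrophils and monocytes. It stood at 86.0, 79.3 and 79.3 CPM in NC, 479, 492 and 454 CPM in LPS and 14.1, 14.2 and 14.2 CPM in CEL, with no overlap between any of the 3 groups. CEL was 5.75-fold below NC (log2 change -2.52, SE 0.06, adjusted p = 1.81e-11), and LPS 5.82-fold above it. Its partner S100A9, picked with its values known, crossed over too, at 237, 1754 and 116 CPM. HSD11B1, the enzyme that regenerates active cortisol, fell from 34.2 ± 0.496 to 2.52 ± 0.463 CPM (log2 change -3.76, SE 0.10, adjusted p = 4.65e-11) and was at 118 ± 3.02 CPM in LPS. The gene with the symbol CPM, carboxypeptidase M, a surface enzyme of macrophages, had a mean level of 67.2 in NC, 177 in LPS and 25.3 in CEL. FCGR1BP, a pseudogene of the Fc gamma receptor I gene, had means of 17.5, 71.5 and 6.81 CPM, which are uncertain because its reads can come from FCGR1A. NAIP, given above, crossed over as well.

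ENO2, described above, was new by the rule, which compares CEL with NC and LPS only, and CE had 18.8 CPM. Among the new genes with a log2 CPM that averaged 3 or more, which ENO2 did not reach, the largest rise was that of DUSP10. DUSP10, a phosphatase that turns off stress kinases, stood at 19.7, 19.96 and 19.8 CPM in NC, 33.6, 32.8 and 31.7 CPM in LPS and 332, 337 and 361 CPM in CEL (log2 change 4.11, SE 0.06, adjusted p = 2.23e-12), with 234 CPM in CE. KLF10, a transcription factor induced by TGF-beta, rose from 33.0 ± 1.12 to 294 ± 18.8 CPM, BNIP3L, a receptor for the removal of mitochondria, rose from 39.7 ± 3.18 to 353 ± 16.3 CPM, and ASMER1, a long non-coding RNA, rose from 5.52 ± 0.633 to 50.8 ± 2.68 CPM. SERPINE2, an inhibitor of serine proteases, stood at 5.90, 6.03 and 6.68 CPM in NC, 9.18, 9.98 and 9.55 CPM in LPS, 6.84, 6.98 and 7.71 CPM in CE and 55.1, 55.8 and 56.6 CPM in CEL. Only the CEL libraries were high (9.00-fold above NC, log2 change 3.17, SE 0.07, adjusted p = 2.20e-11). On the lower side, the membrane protein gene MS4A6A fell from 159 ± 5.19 to 8.31 ± 0.637 CPM (log2 change -4.26, SE 0.07, adjusted p = 2.60e-12), the retinol dehydrogenase gene DHRS9 from 126 ± 2.39 to 8.27 ± 0.685 CPM, MEIOB, a gene of meiotic recombination, from 99.8 ± 5.15 to 8.02 ± 0.487 CPM and TMT1B from 30.7 ± 1.39 to 3.42 ± 0.527 CPM.

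Iron and heme genes did not move as a group, although FTH1 was among the strongest changes. Of 25 tested, 8 were higher in CEL and 7 lower (34% and 33% of all genes) and 10 did not pass, with a median of -0.24 that turned to 0.14 on log2(TPM + 1) values. After FTH1, the iron importer gene SLC11A2 rose from 20.4 ± 1.35 to 135 ± 6.32 CPM (log2 change 2.73, SE 0.06, adjusted p = 2.40e-11). HMOX1, which breaks down heme, rose from 0.474 ± 0.170 to 43.5 ± 3.50 CPM (log2 change 6.54, SE 0.25, adjusted p = 4.00e-10), and ALAS1, the first enzyme of heme synthesis, rose from 60.4 ± 3.16 to 266 ± 11.8 CPM. More heme genes fell than rose. Of the 12 tested, 3 were higher in CEL and 5 lower (34% and 33% of all genes). The other 4 did not pass, and the median of the 12 was -0.27. The transferrin receptor gene TFRC rose from 408 ± 9.04 to 816 ± 47.8 CPM, and the light chain gene FTL from 1616 ± 53.2 to 3974 ± 189.5 CPM. SLC40A1, the iron exporter ferroportin, fell from 18.5 ± 1.88 to 1.81 ± 0.136 CPM (log2 change -3.35, SE 0.14, adjusted p = 2.91e-09) and had fallen to 2.27 CPM in LPS. FBXL5, an iron sensor that degrades iron regulatory proteins, was restored at 57.4, 131 and 56.9 CPM in NC, LPS and CEL. TFRC, FTL, SLC40A1 and FBXL5 were picked with values known.

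Genes of NRF2, the factor that answers oxidative stress, and of redox control were mostly higher: of 22 tested, 18 rose and 1 fell (34% and 33% of all genes) and 3 did not pass, with a median of 1.37 in CEL minus NC and 0.55 in LPS minus NC. ME1, malic enzyme, which makes NADPH, rose from 21.5 ± 1.76 to 206 ± 15.8 CPM (log2 change 3.26, SE 0.07, adjusted p = 1.78e-11), and NFE2L2, the gene of NRF2, rose from 118 ± 3.94 to 644 ± 31.7 CPM. NQO1, a quinone reductase, rose from 61.6 ± 2.54 to 248 ± 5.26 CPM. SOD2, the mitochondrial superoxide dismutase, rose from 49.5 ± 3.00 to 1243 ± 90.6 CPM, and LPS had 953 ± 25.1 CPM.

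Hypoxia response genes were mostly higher. Of 25 tested hypoxia genes, 20 were higher in CEL than in NC and 1 was lower (34% and 33% of all genes), and 4 did not pass. Of the 25, 8 remained higher (8.12% of all genes did) and 6 were new (6.11%). The median was 1.99 in CEL minus NC and 0.73 in LPS minus NC. In CEL against LPS 16 were higher and 1 lower (28.7% and 27.2% of all genes). The transcription factor gene BHLHE40 stood at 4.98, 4.57 and 5.14 CPM in NC, 29.9, 30.9 and 30.9 CPM in LPS and 223, 217 and 224 CPM in CEL, the CEL libraries being highest (log2 change 5.50, SE 0.05, adjusted p = 8.52e-14). KDM3A, a histone demethylase, rose from 69.6 ± 1.51 to 285 ± 16.0 CPM and had 71.4 CPM in LPS (log2 change 2.04, SE 0.05, adjusted p = 3.28e-11). The collagen prolyl hydroxylase genes P4HA1 and P4HA2 rose from 106 ± 1.51 to 693 ± 35.0 CPM and from 6.24 ± 0.423 to 41.9 ± 0.351 CPM. HIF1A, the oxygen-regulated factor of this response, rose from 138 ± 2.81 to 424 ± 32.7 CPM. ADM, the peptide hormone adrenomedullin, had 2 counts in NC, 84 in LPS and 473 in CEL, a ratio of 243-fold (exact 95% counting interval 67.0 to 2016) to NC. HIF1A and ADM were picked with values known.

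Of 26 tested glycolysis genes, 16 were higher in CEL and 4 lower (34% and 33% of all genes) and 6 not passed, with a median of 0.86 in CEL minus NC and 0.13 in LPS minus NC. ALDOC, an aldolase, stood at 16.0, 14.9 and 15.1 CPM in NC, 13.2, 12.4 and 11.9 CPM in LPS and 116, 128 and 129 CPM in CEL (log2 change 3.01, SE 0.07, adjusted p = 4.24e-11). The CEL values were the only high ones among those 3 groups, and CE had 92.3 CPM. The glucose transporter gene SLC2A3 rose from 3.76 ± 0.249 to 94.2 ± 5.52 CPM (log2 change 4.64, SE 0.08, adjusted p = 3.62e-12), and LPS had 32.5 CPM. LDHA, which makes lactate, rose from 1348 ± 33.7 to 3117 ± 155 CPM, and PGK1 rose from 754 ± 32.0 to 1725 ± 85.3 CPM. PYGL, which breaks down glycogen, fell from 242 ± 4.63 to 34.2 ± 2.10 CPM (log2 change -2.82, SE 0.05, adjusted p = 4.50e-12), and the second lactate dehydrogenase LDHB fell from 1126 ± 38.8 to 619.5 ± 41.1 CPM. LDHA, PGK1 and LDHB were picked with values known. The core letters of the hypoxia response element, ACGTG on either strand, lay in 9 of 19 hypoxia promoters (47.4%) and 10 of 24 glycolysis promoters (41.7%), against 26.9% of all. They are not particular to these lists. Ribosome biogenesis promoters, of a list that was mostly lower, held them in 57.1%, lysosome promoters in 50% and cytokine promoters in 10%. Genes that were new higher held them in 28.9%. The search also counts the E-box CACGTG, which contains these letters on both strands. ENO2 (chr12:6914330-6914629, plus strand) and ALDOC (chr17:28576846-28577145, minus strand) are shown as the enzymes of the list that were new and rose most, with the core in capitals. The first capitals of ALDOC are such an E-box.
ENO2: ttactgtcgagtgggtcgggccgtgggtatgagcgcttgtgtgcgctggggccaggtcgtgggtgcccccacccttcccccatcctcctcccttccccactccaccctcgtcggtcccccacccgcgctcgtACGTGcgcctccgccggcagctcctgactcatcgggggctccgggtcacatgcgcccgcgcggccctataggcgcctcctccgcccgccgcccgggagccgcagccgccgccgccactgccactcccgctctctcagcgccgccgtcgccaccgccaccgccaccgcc
ALDOC: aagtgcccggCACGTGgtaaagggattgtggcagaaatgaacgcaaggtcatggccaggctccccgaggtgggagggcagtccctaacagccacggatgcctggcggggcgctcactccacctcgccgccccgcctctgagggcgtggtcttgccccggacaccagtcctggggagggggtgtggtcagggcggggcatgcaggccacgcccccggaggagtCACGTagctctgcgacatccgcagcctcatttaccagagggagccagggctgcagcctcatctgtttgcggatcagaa

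Genes of activin, BMP and TGF-beta signalling, the family that luspatercept traps ligands of, were more often higher than lower. Of 44, 33 were tested, and 23 were higher in CEL and 2 lower (34% and 33% of all genes) and 8 not passed, with a median of 1.31 in CEL minus NC and 0.65 in LPS minus NC. Of 6 tested ligand genes, 2 were higher, 2 lower and 2 did not pass. INHBA, the activin A subunit, was at 0.101 CPM in NC, 2.57 in LPS and 0.759 in CEL (log2 change 2.75, SE 0.59, adjusted p = 6.93e-04), and GDF11 fell from 4.19 ± 0.308 to 1.74 ± 0.150 CPM (log2 change -1.26, SE 0.24, adjusted p = 6.53e-04). Among receptors, ACVR2A, an activin type II receptor, went from 4.07, 4.93 and 4.97 CPM to 43.3, 41.2 and 42.1 CPM (log2 change 3.18, SE 0.10, adjusted p = 2.60e-10). The groups did not overlap, and LPS lay between them at 23.1, 24.1 and 19.6 CPM. TGFBR1 rose from 80.8 ± 0.966 to 312 ± 13.1 CPM (log2 change 1.95, SE 0.04, adjusted p = 1.50e-11), and ACVR2B, the receptor that luspatercept is built from, rose from 3.91 ± 0.795 to 6.53 ± 1.24 CPM (log2 change 0.75, SE 0.24, adjusted p = 0.0157). Among targets and feedback genes, SKIL, a repressor of SMAD transcription, stood at 11.0, 11.1 and 11.0 CPM in NC, 59.9, 62.6 and 54.6 CPM in LPS, 299, 302 and 323 CPM in CE and 376, 371 and 413 CPM in CEL (log2 change 5.13, SE 0.06, adjusted p = 4.95e-13). THBS1, thrombospondin 1, was at 0.168 ± 0.0484 CPM in NC, 91.0 ± 3.77 CPM in LPS and 12.6 ± 0.417 CPM in CEL (log2 change 6.14, SE 0.19, adjusted p = 1.07e-11). INHBA, GDF11 and ACVR2B were picked with values known.

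In the calcineurin and NFAT list, the direct line of cyclosporin A, 9 of 14 tested genes were higher in CEL and 3 lower (34% and 33% of all genes) and 2 not passed, with a median of 0.85. RCAN1, described above, was the only restored member. NFAT5, the family member that lacks calcineurin binding, rose from 13.6 ± 0.565 to 96.9 ± 5.54 CPM (log2 change 2.83, SE 0.07, adjusted p = 5.12e-11), NFATC3 rose from 82.0 ± 3.77 to 121 ± 2.84 CPM, and PPP3R1, the regulatory subunit of calcineurin, rose from 74.1 ± 3.33 to 148 ± 8.60 CPM. EGR2 had 2 counts in NC, 105 in LPS and 415 in CEL, a ratio of 214-fold (exact 95% counting interval 58.8 to 1769.8) to NC.

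Genes of immature myeloid cells were mostly lower. Of 18 tested, 15 were lower in CEL by 2-fold or more, 1 was higher and 2 did not pass, with a median of -2.39 in CEL minus NC and -1.52 in LPS minus NC, where 17.4% of all genes were lower at that size. Of these, 10 remained lower (4.76% of all genes did). MS4A3, a marker of granulocyte-monocyte progenitors, stood at 217, 201 and 206 CPM in NC, 9.28, 8.52 and 8.26 CPM in LPS and 0.390, 0.401 and 0.430 CPM in CEL (log2 change -8.98, SE 0.19, adjusted p = 3.16e-12). The LPS libraries were between the other groups, and CE had 0.809 CPM. CTSG, the granule protease cathepsin G, fell from 510.3 ± 26.1 to 31.6 ± 2.29 CPM and was at 27.9 ± 0.378 CPM in LPS. MYB, a transcription factor of proliferating progenitors, fell from 659.8 ± 17.9 to 102 ± 5.62 CPM (log2 change -2.70, SE 0.05, adjusted p = 6.01e-12). HOXA9, the higher member, had 67.6 ± 1.40 and 89.1 ± 1.42 CPM in NC and CEL.

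Monocyte and macrophage genes went both ways: of 29 tested, 15 were higher in CEL and 8 lower (34% and 33% of all genes) and 6 not passed, with a median of 1.27 in CEL minus NC and 2.23 in LPS minus NC. GPNMB, a glycoprotein of lipid-laden macrophages, rose from 3.99, 3.06 and 3.20 CPM to 139, 146 and 160.0 CPM (log2 change 5.43, SE 0.11, adjusted p = 1.56e-11). LPS held 16.5, 17.5 and 14.6 CPM and CE 67.0 CPM, so the CEL libraries were the highest of the 4 groups. SPP1, osteopontin, rose from 2.27 ± 0.387 to 113 ± 7.10 CPM (log2 change 5.63, SE 0.11, adjusted p = 6.75e-12). LYZ, lysozyme, fell from 595 ± 16.97 to 20.3 ± 1.30 CPM (log2 change -4.87, SE 0.06, adjusted p = 5.41e-13), and CCR2, the receptor that brings monocytes to CCL2, fell from 244, 228 and 238 CPM to 4.98, 5.76 and 6.61 CPM (log2 change -5.36, SE 0.09, adjusted p = 3.16e-12). For CCR2 the LPS libraries lay between, at 130.3, 130.5 and 119.8 CPM, and LYZ had a mean of 142 CPM in LPS. CD36, a scavenger receptor picked with its values known, was restored at 45.2, 145 and 50.7 CPM. Other strong falls were BEX1 (from 164 ± 7.03 to 2.60 ± 0.0991 CPM), the non-coding gene CCDC26 (from 59.6 ± 2.51 to 1.70 ± 0.205 CPM), CLTCL1, a clathrin heavy chain (from 73.0 ± 3.11 to 4.24 ± 0.603 CPM), and NUDT7 (from 46.9 ± 0.596 to 2.77 ± 0.142 CPM). NREP (from 225 ± 2.90 to 21.6 ± 1.13 CPM), CXCR2, a receptor of CXCL8 (from 35.5 ± 1.73 to 4.80 ± 0.356 CPM), and CORO2A, a coronin (from 37.1 ± 2.46 to 5.48 ± 0.649 CPM), also remained lower from LPS. Other strong rises were RGS1, a regulator of chemokine receptor signals (from 0.189 ± 0.0345 to 81.6 ± 0.936 CPM), and ICAM1, an adhesion receptor for leukocytes, whose CEL libraries spread over 221, 155 and 125 CPM (log2 change 8.70, SE 0.83, adjusted p = 2.40e-07). In LPS the means were 81.4 CPM for RGS1 and 61.5 CPM for ICAM1, and both genes remained higher.

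Of 12 tested genes of class II antigen presentation, 7 were higher and 3 lower (34% and 33% of all genes) and 2 not passed (median 0.96 in CEL minus NC, 0.20 in LPS minus NC). HLA-DRA, a class II chain, rose from 5.39 ± 0.0423 to 34.3 ± 0.573 CPM and CD74, its chaperone, from 67.2 ± 2.66 to 177 ± 1.13 CPM. RFX5 and RFXANK, factors of the class II promoter, fell from 169 ± 4.95 to 95.7 ± 2.39 CPM and from 52.5 ± 1.95 to 17.99 ± 0.733 CPM.

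**Figure D3:**
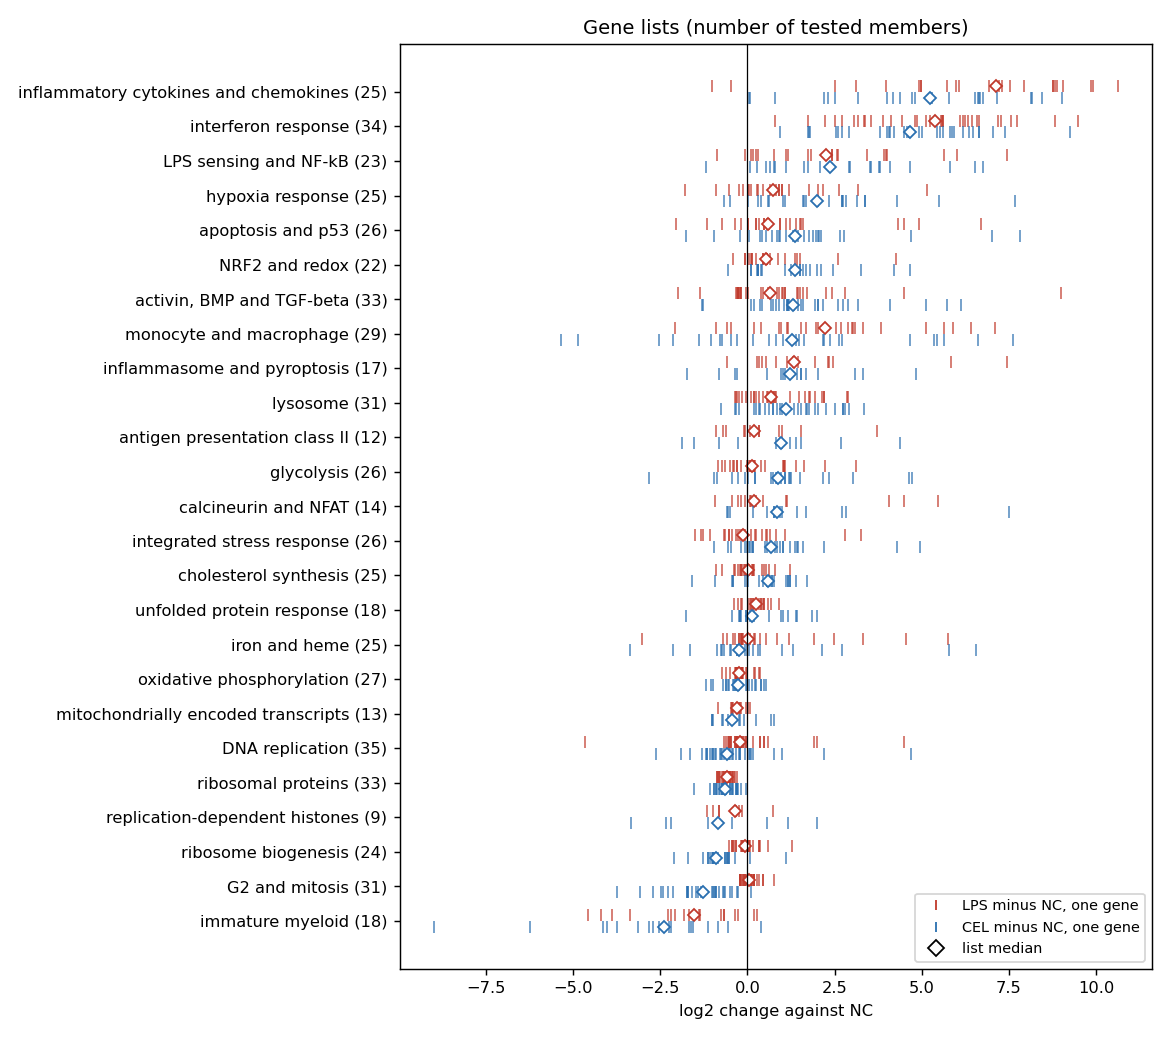
Log2 change against NC of each tested member of 25 gene lists, in LPS (red ticks) and in CEL (blue ticks), with the list medians (diamonds); the number after each name is the tested members, and lists with under 5 tested members are left out. Cytokine and interferon lists lie far to the right in both, the G2 and mitosis list lies at 0.04 in LPS and -1.27 in CEL, and the immature myeloid list is lowest in both.

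Mitosis genes were lower in CEL, while most did not pass in the model without drugs. Of 31, all were tested, and 29 were lower in CEL than in NC (33% of all genes were) and 2 did not pass. In LPS against NC, 6 were higher and 3 lower (22.4% and 23.5% of all genes), and 22 did not pass. The list's median was -1.27 in CEL minus NC and 0.04 in LPS minus NC. Against LPS, 30 were lower in CEL (27.2% of all genes were), and 16 were new lower (6.39%). KIF20A, a kinesin of cell division, stood at 123, 114 and 117 CPM in NC, 108, 109 and 106 CPM in LPS, 41.8, 36.7 and 40.5 CPM in CE and 8.74, 9.87 and 7.90 CPM in CEL (13.3-fold below NC, log2 change -3.74, SE 0.08, adjusted p = 1.21e-11). The NC and LPS libraries lay together, CE lay below them and CEL lowest. HMMR, a spindle protein, went from 273, 259.6 and 278 CPM to 30.6, 31.0 and 33.7 CPM (log2 change -3.09, SE 0.07, adjusted p = 2.56e-11), with 287, 289 and 250.3 CPM in LPS. CDC20, which starts the exit from mitosis, fell from 375 ± 11.7 to 67.0 ± 3.45 CPM (log2 change -2.49, SE 0.06, adjusted p = 2.80e-11), and ASPM, a spindle pole protein, fell from 332 ± 6.00 to 61.4 ± 4.17 CPM. CDK1 (0.11) and FOXM1 (-0.29) were the members that did not pass. The cell cycle homology region, searched as TTTGAA on both strands, lay in 15 of 25 promoters of the list (60%) against 10.8% of all, and the CCAAT box in 21 (84%) against 37.4%. Unfolded protein response and cholesterol promoters held the CCAAT box in 83.3% and 75%, and LPS sensing and NF-kB promoters in 10.5%. Genes that were new lower held TTTGAA in 15.75% and the CCAAT box in 42.8%. The list was made of known mitosis genes, so its shares describe the list. HMMR (chr5:163460382-163460681, plus strand) and CDC20 (chr1:43358731-43359030, plus strand) are shown with the TTTGAA letters in capitals, which in HMMR follow each other directly 28 and 22 bases before the start.
HMMR: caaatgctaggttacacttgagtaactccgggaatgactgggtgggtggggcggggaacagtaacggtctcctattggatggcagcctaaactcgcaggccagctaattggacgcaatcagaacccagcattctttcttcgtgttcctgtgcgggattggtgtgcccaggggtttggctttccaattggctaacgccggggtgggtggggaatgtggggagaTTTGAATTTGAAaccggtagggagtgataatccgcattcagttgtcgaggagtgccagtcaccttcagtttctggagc
CDC20: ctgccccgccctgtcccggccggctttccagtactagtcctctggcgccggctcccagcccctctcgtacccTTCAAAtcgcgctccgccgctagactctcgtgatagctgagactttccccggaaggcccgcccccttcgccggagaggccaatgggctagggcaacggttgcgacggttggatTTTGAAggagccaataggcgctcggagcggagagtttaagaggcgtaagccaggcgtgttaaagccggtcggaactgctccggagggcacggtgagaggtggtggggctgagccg

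**Figure D4:**
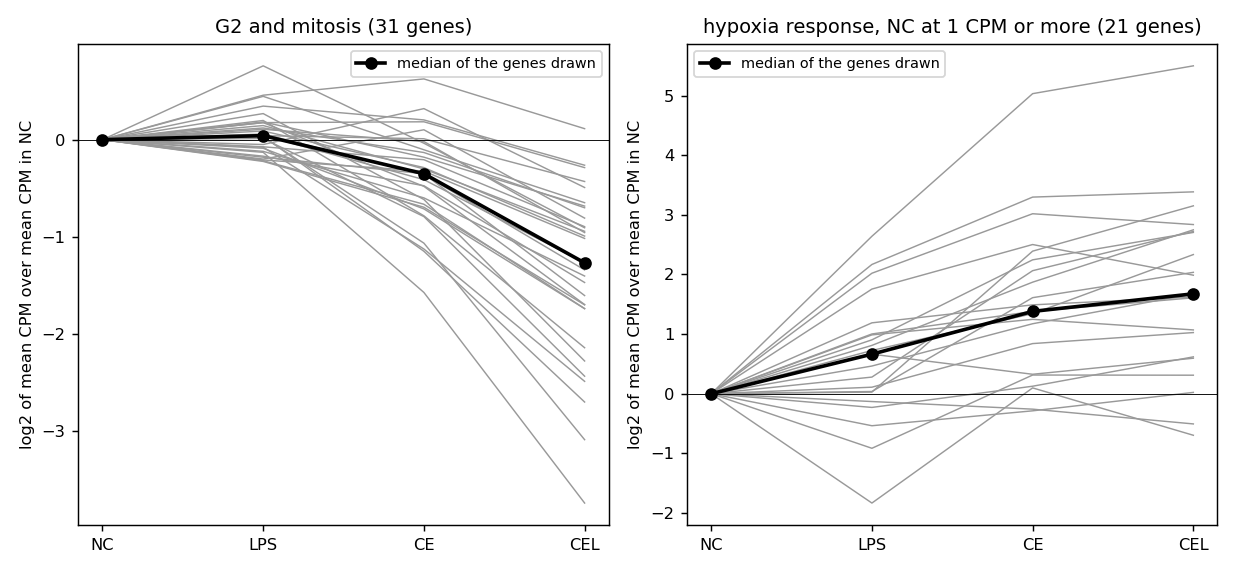
Log2 of the mean CPM in each group over the mean in NC, for the 31 G2 and mitosis genes and the 21 hypoxia genes with at least 1 CPM in NC (grey lines), with the median of the genes drawn (black). The mitosis median runs 0.04 in LPS, -0.35 in CE and -1.27 in CEL, and the hypoxia median 0.66, 1.38 and 1.68; groups are in the order of the design, and lines only join values of a gene.

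DNA replication genes were mostly lower. Of 35 tested, 24 were lower in CEL and 2 higher (33% and 34% of all genes) and 9 not passed, with a median of -0.59 in CEL minus NC and -0.20 in LPS minus NC. POLE2, a polymerase subunit, fell from 30.9 ± 1.43 to 8.17 ± 0.473 CPM (log2 change -1.92, SE 0.09, adjusted p = 4.00e-09), RRM2, which makes deoxynucleotides, from 169 ± 4.58 to 68.5 ± 3.95 CPM, CCNE1, cyclin E1, from 28.9 ± 1.82 to 9.27 ± 0.827 CPM, and the licensing factor CDC6 from 124 ± 2.76 to 55.4 ± 2.81 CPM. The cell cycle inhibitor gene CDKN1A, picked with its values known, rose from 1.43 ± 0.237 to 37.0 ± 13.0 CPM (log2 change 4.70, SE 0.70, adjusted p = 1.16e-04) and was at 32.3 CPM in LPS. Among replication-dependent histone genes 9 could be tested, of which 5 did not pass, 2 rose and 2 fell. Their transcripts mostly lack a poly(A) tail, and the median of -0.83 became 1.61 without NC 3, so no direction is given for them. H2AC6 had means of 1.89 and 7.45 CPM in NC and CEL, H2BC12 5.70 and 12.6, H2AC20 3.07 and 0.293, and H2AC11 1.62 and 0.316, the last not called with the replicate block.

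Genes of ribosome production and ribosomal proteins were lower. Of 24 tested ribosome biogenesis genes, 19 were lower in CEL and 1 higher (33% and 34% of all genes) and 4 not passed, with a median of -0.91 in CEL minus NC and -0.08 in LPS minus NC. NOP56, a core protein of small nucleolar particles, stood at 315, 299.7 and 316 CPM in NC, 248, 253 and 245 CPM in LPS and 69.3, 72.6 and 74.0 CPM in CEL (log2 change -2.11, SE 0.04, adjusted p = 9.81e-12). CEL alone was low among these 3 groups, and CE had 80.2 CPM. NOP16 fell from 64.2 ± 3.46 to 19.7 ± 1.17 CPM, NCL, nucleolin, from 2489.9 to 1037 CPM, and UTP20 from 62.1 ± 0.743 to 30.4 ± 1.35 CPM. MYC, a factor that drives these genes in dividing cells, was in the immature myeloid list and fell from 60.4 ± 3.93 to 12.7 ± 2.67 CPM (log2 change -2.24, SE 0.28, adjusted p = 3.28e-05), picked with its values known. Of 33 ribosomal protein genes, 32 were lower (33% of all genes) and 1 did not pass, with medians of -0.63 in CEL minus NC and -0.59 in LPS minus NC. RPL3 fell from 1671 ± 81.7 to 582 ± 24.4 CPM (log2 change -1.52, SE 0.07, adjusted p = 3.96e-09), RPS2 from 1634 ± 57.3 to 779 ± 7.44 CPM, RPL5 from 2634 ± 49.99 to 1346 ± 66.3 CPM and RPL8 from 1228 ± 37.2 to 741 ± 6.11 CPM. Ribosomal protein genes have many processed copies, so their levels are uncertain. With limma on log2(TPM + 1) the medians kept their sign, and fewer were called lower: 12 of 35 DNA replication, 10 of 24 ribosome biogenesis and 12 of 33 ribosomal protein genes.

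Nuclear genes of oxidative phosphorylation had a median near 0: of 27, 5 were higher and 16 lower (34% and 33% of all genes) and 6 not passed, with a median of -0.28 that was -0.01 on log2(TPM + 1), where 6 were higher and 5 lower. NDUFB10 of complex I fell from 93.1 ± 3.82 to 41.2 ± 2.13 CPM, and the ATP synthase genes ATP5MC1, ATP5PB and ATP5F1A fell from 55.7 ± 4.71 to 27.8 ± 2.54 CPM, from 533 ± 16.1 to 327 ± 19.8 CPM and from 778 ± 33.4 to 510.4 ± 36.0 CPM. Of 13 transcripts made in mitochondria, 3 were higher and 7 lower (34% and 33% of all genes) and 3 not passed (median -0.45). On log2(TPM + 1) values 2 were higher and 3 lower (median -0.19), and with upper quartile factors 10 were lower. MT-CO2, MT-CO3 and MT-ATP6 fell from 7565 ± 310.2 to 3766 ± 102 CPM, from 9492 ± 265 to 4787 ± 199 CPM and from 4479 ± 336 to 2690.4 ± 56.2 CPM, and MT-ND5 rose from 605 ± 42.5 to 977 ± 55.6 CPM.

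Lysosome genes were mostly higher. Of 31 tested, 24 were higher and 3 lower (34% and 33% of all genes) and 4 not passed, with a median of 1.11 in CEL minus NC and 0.68 in LPS minus NC. The protease gene CTSS rose from 65.5 ± 1.18 to 439.9 ± 12.9 CPM (log2 change 2.75, SE 0.04, adjusted p = 9.67e-13), CTSB from 42.0 ± 2.90 to 317 ± 5.11 CPM and CTSH from 32.7 ± 2.27 to 155 ± 1.69 CPM, and PSAP, the precursor of lipid-degrading cofactors, rose from 235 ± 6.71 to 1565 ± 19.0 CPM. CTSH was lower in CEL than in LPS (235 ± 2.47 CPM, log2 change -0.60, SE 0.05, adjusted p = 8.38e-07), whereas CTSS was higher than in LPS (225 ± 8.21 CPM, log2 change 0.97, SE 0.04, adjusted p = 5.29e-09).

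In the integrated stress response list, 16 of 26 tested genes were higher and 3 lower (34% and 33% of all genes) and 7 not passed, with a median of 0.67 in CEL minus NC and -0.13 in LPS minus NC. Of these, 5 were new higher (6.11% of all genes) and 4, named above, were restored from lower (0.555%). ATF3, a stress-induced factor, rose from 1.58 ± 0.305 to 49.5 ± 1.56 CPM (log2 change 4.95, SE 0.11, adjusted p = 1.84e-11). DDIT3, the factor CHOP, was at 16.4, 16.9 and 17.9 CPM in NC, 21.5, 25.4 and 21.2 CPM in LPS and 74.1, 81.6 and 80.6 CPM in CEL (log2 change 2.21, SE 0.08, adjusted p = 1.29e-09), the CEL libraries being the high ones. SLC7A11, a cystine importer, rose from 56.7 ± 1.55 to 172 ± 11.4 CPM and the tryptophanyl-tRNA synthetase gene WARS1 from 163 ± 8.12 to 436 ± 18.8 CPM. Of 18 unfolded protein response genes, 8 were higher and 5 lower (34% and 33% of all genes) and 5 not passed, with a median of 0.12 that turned to -0.12 with upper quartile factors; without NC 3, 2 were lower. DNAJB9, a chaperone of the endoplasmic reticulum, rose from 19.6 ± 0.554 to 77.6 ± 5.09 CPM (log2 change 1.98, SE 0.08, adjusted p = 2.26e-09), and ATF6, HERPUD1 and DNAJC3 rose from 119 ± 1.95 to 311 ± 19.1 CPM, from 34.5 ± 1.56 to 91.7 ± 4.47 CPM and from 101 ± 2.29 to 224 ± 13.0 CPM. These named genes all rose, but the 5 lower genes of the list were all chaperones. Among its 11 chaperone genes 3 were higher, 5 lower and 3 not passed, with a median of -0.18.

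Of 25 tested cholesterol genes, 13 were higher and 4 lower (34% and 33% of all genes) and 8 not passed (median 0.58 in CEL minus NC, 0.01 in LPS minus NC). SQLE and MSMO1, enzymes of cholesterol synthesis, rose from 193 ± 3.97 to 505 ± 18.5 CPM and from 62.8 ± 1.66 to 203 ± 8.47 CPM, STARD4, a cholesterol carrier, from 74.2 ± 0.397 to 172 ± 9.63 CPM, and ABCA1, which exports cholesterol, from 75.3 ± 5.57 to 177 ± 11.7 CPM. Of 26 tested genes of apoptosis and p53, 20 were higher and 3 lower (34% and 33% of all genes) and 3 not passed, with a median of 1.38 in CEL minus NC and 0.59 in LPS minus NC. The survival genes BIRC3 and BCL2A1, both known NF-kB targets, rose from 2.72 ± 0.177 to 356 ± 25.7 CPM (log2 change 7.03, SE 0.11, adjusted p = 1.26e-12) and from 0.348 ± 0.104 to 79.2 ± 4.73 CPM (log2 change 7.81, SE 0.19, adjusted p = 6.25e-12). TNFRSF10B, a death receptor for TRAIL, rose from 12.9 ± 0.644 to 87.5 ± 2.63 CPM, and CFLAR, which blocks caspase-8, from 18.7 ± 1.56 to 63.5 ± 2.16 CPM. BCL2 itself, picked with its values known, fell from 77.8 ± 6.58 to 23.04 ± 2.74 CPM (log2 change -1.75, SE 0.23, adjusted p = 4.54e-05).

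Few markers of other lineages passed the filter on low counts. Of the lymphocyte list 4 were tested, with TRAC higher in CEL (0.134 CPM in NC, 7.41 in LPS, 0.836 in CEL), NKG7 lower, and CD79B among those that did not pass (log2 change -0.31, adjusted p = 0.529). The call of NKG7 was lost without NC 2, NC 3 or CEL 3, with DESeq2, with no filter on low counts and on both log2(TPM) scales. Of the erythroid and megakaryocytic list 2 were tested: EPOR, the erythropoietin receptor, fell from 2.54 ± 0.231 to 0.788 ± 0.183 CPM, and PPBP had 4 counts in NC and 31 in CEL. Of the fibroblast, epithelial and endothelial list 3 were tested, and all were higher in CEL and far higher in LPS. DCN, decorin, had 3 counts in NC, 2376 in LPS and 68 in CEL, a ratio of 23.3-fold (exact 95% counting interval 7.65 to 116) for CEL to NC. LUM, lumican, had 2, 2245 and 63 counts, a ratio of 32.4-fold (exact 95% counting interval 8.61 to 274). PDGFRA had means of 0.324, 8.65 and 1.70 CPM. The other 13 markers of that list, collagen and keratin genes among them, were not tested, and COL1A1 had 7, 3 and 18 counts in NC, LPS and CEL. The part of other cells in any result was not tested.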

How the data were processed

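mRNA was captured with oligo-dT beads and sequenced, per the labels' protocols; the build was hg38 (per the submitters' processing notes), and no aligner or counter is named in the labels used here. A table of estimated counts was deposited, in which 29.3% of the values above 0 were not whole, and TPM values were deposited by the authors beside them. Columns were matched to samples by name; those of the CE group were matched as the remaining group. The counts were rounded and tested with edgeR 4.0.16 in R 4.3.3: genes filtered with filterByExpr, TMM scaling, a quasi-likelihood test over all 4 groups, Benjamini-Hochberg adjustment over 14065 genes, a call at 0.05. The biological coefficient of variation was 20.1%. Standard errors and 95% intervals come from the same fit. CPM values are on TMM-scaled sizes, and levels are compared only within a gene. Alternatives were other scaling factors, no filter, a replicate block, leaving out libraries, DESeq2 1.42.0, limma 3.58.1 on log2(TPM + 1) and log2(TPM + 0.1), and other limits. The fit was also run on simulated data with changes planted in genes of higher count. The spread between simulated replicates was smaller than in these libraries, so that run does not show how well the fit works on them.

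The labels give the replicate number as a batch. Same-numbered NC and CEL libraries did not deviate together from their group means (r = -0.27, -0.11 and 0.06 over 7460 genes of high count); this is across genes, which are not independent.

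Members and the 28 gene lists (708 genes) were chosen with earlier results of these data known. Named genes were the 4 given ones, the 8 largest rises and 8 largest falls among called genes whose groups did not overlap and whose log2 CPM averaged 3 or more, the 5 largest in each class and direction, and up to 4 of smallest p in each list. Exact counting intervals of ratios cover counting error only. Promoters are RefSeq windows on GRCh38.p14, found for 10033 tested genes, and gene positions are from GENCODE v29 by identifier. The values of some list members are not reported here.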

Additional observations from a re-analysis of the deposited data

How the results depend on the processing

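Of 144 named genes, 129 kept their direction and their side of the threshold in CEL minus NC under every alternative, and 15 changed under at least 1. Over all named genes and alternatives, 11 values changed sign, 40 lost a call and 12 gained one. Those that changed sign are given below, and the genes that lost or gained a call are not all listed. With a 4-fold limit for the calls, 834 genes remained changed, 17 were restored, 231 were new and 5 crossed over, against 1811, 161, 1759 and 38 with 2-fold. With intervals within 1.5-fold, 44 were restored and 807 new, so the number called restored or new rests on that limit. With limma on log2(TPM + 1), 3268 genes were called at 2-fold or more, 2310 higher and 958 lower. Leaving out a library at a time gave 8771 to 8997 genes called in CEL against NC, 4736 to 4836 at 2-fold, 2146 to 2224 in LPS against NC, 2707 to 2856 in CEL against LPS, and 1681 to 1782 remained, 138 to 163 restored, 1594 to 1746 new and 28 to 39 crossed over. Without both NC 3 and LPS 1, an alternative chosen after seeing the data, 1565 remained, 145 were restored, 1471 were new and 29 crossed over. With the replicate block, 9185 genes were called and 4890 at 2-fold, and 1765 remained, 153 were restored, 1696 were new and 33 crossed over, and among the lists it moved by over 1.5 times the lower histone genes from 2 to 1 and the lower lymphocyte markers from 1 to 2. With upper quartile factors 3828 of all called genes were higher and 5805 lower; the median of all genes moved by -0.11 with library size alone, by 0.16 on log2(TPM + 1) and by 0.25 on log2(TPM + 0.1). On the side of genes near the untreated level, DDX60L turned to -0.046 with upper quartile factors. PELI2, at -0.01 with all libraries, ranged from -0.081 to 0.037 without a library at a time, above 0 without NC 2, NC 3 or CEL 3, and was 0.037 without both NC 3 and LPS 1, and 0.18 and 0.22 on the log2(TPM + 1) and log2(TPM + 0.1) scales. On those scales SLC1A3 turned to 0.28 and 0.32 and PSAT1 to 0.055 and 0.056. The cause of these changes was not tested. Genes under about 1 CPM, such as GSDMD and most markers of other cell types, were limited by depth.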
